A study of Mus musculus with 4 samples.

Results

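The 85 cytosolic ribosomal protein genes were followed one by one in single-nucleus RNA counts of mouse brain. They were chosen by symbol (Rpl or Rps followed by a number, with *Rplp0*, *Rplp1*, *Rplp2*, *Rpsa* and *Fau*, without the *Rps6* kinases) and made up 85 of the 31053 gene rows, 52 of them named for the large and 33 for the small subunit. The nuclei came from brains of untreated 2-month-old female C57/BL6 mice, 2 WT and 2 *Csf1r*+/- (HET) libraries. HET mice carry a germline loss of 1 copy of the gene for the receptor of colony stimulating factor 1, in all cells and not in microglia alone, and the study describes them as without symptoms at this age. The third library per genotype was not analysed here. WT and HET libraries shared the strain, sex, age, perfusion, detergent-free isolation of nuclei and removal of myelin debris with beads. No label gives a batch or a day.

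A ribosome joins a small subunit, which reads the messenger RNA, to a large subunit, which forms the peptide bond, and every growing or secreting cell makes their proteins in near-equal amounts. Most of these genes share a start of transcription inside a run of C and T, the 5′ terminal oligopyrimidine tract, through which growth signals set how much of each message is translated. A few genes have a paralog that can take the parent's place or that works in ribosome assembly, among them *Rpl22l1* for *Rpl22*, *Rps27l* for *Rps27* and *Rpl7l1* for *Rpl7*. In single nuclei the mature messages, most of which sit in the cytoplasm, are seen only in part.

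An annotated start of each of several genes named below is shown as 30 bases of RefSeq promoter sequence (GRCm38.p6), 20 bases before the start and 10 from it. The longest run of C or T within 10 bases of the start is in capitals as far as the window holds it.
*Rpl15*, large subunit, chr14:18270977-18271006, minus strand: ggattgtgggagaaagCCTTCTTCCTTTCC
*Rpl18*, large subunit, chr7:45718051-45718080, plus strand: acgagtgcgtctcgcaggccgCTCTTTCCC
*Rpl38*, large subunit, chr11:114668560-114668589, plus strand: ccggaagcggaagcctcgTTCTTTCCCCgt
*Rps21*, small subunit, chr2:180257359-180257388, plus strand: gcacttaccgaggacccgCCCTCCTgccca
*Rps27*, small subunit, chr3:90213639-90213668, minus strand: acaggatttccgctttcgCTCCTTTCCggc
*Rps27l*, its paralog, chr9:66946066-66946095, plus strand: cctctccaCTCCTCCCCgccgcctctatcc
*Rpl22*, large subunit, chr4:152325706-152325735, plus strand: ccgacttcgCCCTgggaaaagcaatagctg
*Rpl22l1*, its paralog, chr3:28805488-28805517, plus strand: cgtgcgtgcggcgcaagcccgTTCTCTTCC
*Rpl7l1*, paralog of *Rpl7*, chr17:46782647-46782676, minus strand: gcccggtgaggCTgcgcaagcgcagtagct
A run of at least 8 bases of C or T next to the start was found at 32 of 78 starts (41.0%) of the 66 member genes in the table, against 14.0% of 32851 starts of all genes. *Rpl15* had the longest run of those shown, 17 bases, and *Rpl7l1* the shortest, 2 bases. *Rpl18* and *Rpl22l1* each had a run of 10 bases. *Rpl6*, which is not shown, had a run of 6 bases. Other annotated starts of *Rpl22*, *Rps21* and *Rps27l*, also not shown, had runs of 5, 4 and 4 bases. A match describes these letters only, since annotated starts can lie some bases away from the start a cell uses.

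A nucleus was kept if it had 500 to 50000 UMIs (unique molecular identifiers, 1 per captured molecule), over 200 detected genes and less than 5% of UMIs from mitochondrial genes, which left 9589 to 16114 nuclei per library with 88097109 to 111488169 UMIs. Classes were set nucleus by nucleus from counts of detected marker genes, and the 10 leading genes of each class were checked against those markers. *Csf1r*, the targeted gene, stood in microglia at 888 and 895 CPM (a gene's UMIs scaled to 1000000 UMIs of the class in the library) in WT and at 598 and 593 in HET and so went with the labelled genotypes there. Over all kept nuclei it stood at 3.04 and 6.53 CPM in WT and at 6.68 and 6.36 in HET, with overlapping groups. WT replicate 2 stood apart. Its kept nuclei had 0.629% mitochondrial UMIs against 0.170% to 0.286% in the other libraries, and in its excitatory neurons the 12 oligodendrocyte markers, all 12 detected in each library, summed to 88.5 CPM against 27.8 to 30.8, and the 11 astrocyte markers to 35.7 against 12.8 to 16.7. Between 33 and 68 barcodes were shared by any pair of libraries (at most 0.465% of the smaller one). The main genotype fold changes are therefore given with and without WT replicate 2, and the class comparisons with all libraries.

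The share of UMIs that fell on the ribosomal protein genes separated the classes more than the genotypes. In excitatory neurons it was 0.120% and 0.257% in the WT and 0.115% and 0.102% in the HET libraries. In inhibitory neurons it was 0.178%, 0.389%, 0.194% and 0.151%, in the same order of libraries. Oligodendrocytes, the myelinating cells, held 0.260%, 0.630%, 0.230% and 0.182%. Microglia, the resident macrophages, held 0.785%, 1.15%, 0.859% and 0.652%, and endothelial cells 2.86%, 3.31%, 3.25% and 3.72%. The order of the 5 classes was the same in all 4 libraries, and endothelial cells held 12.9 to 36.5 times the share of excitatory neurons of the same library. An exact sign-flip permutation test over the 4 libraries gave p = 0.12 (two-sided) for each class against excitatory neurons, the smallest value it allows. Mitochondrial UMIs followed the same order of classes in each library, from 0.134% to 0.494% in excitatory neurons up to 2.72% to 3.55% in endothelial cells, and their part in the ribosomal share was not tested.

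**Figure D1:**
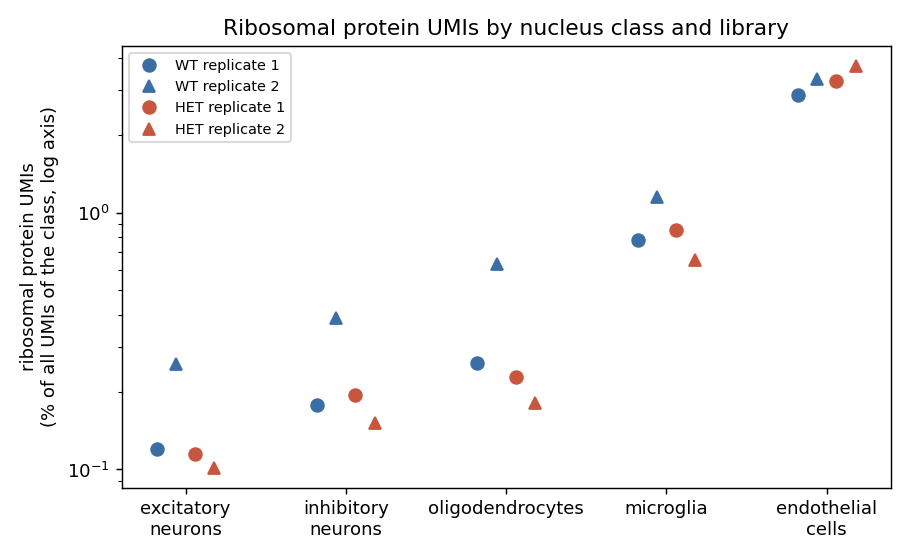
Ribosomal protein UMIs as a percentage of all UMIs (log axis) in the 5 classes, 1 point per library, blue for WT and red for HET, circles for replicate 1 and triangles for replicate 2. Endothelial cells sit between 2.86% and 3.72%, above every other class, and WT replicate 2 is the highest library in all classes but endothelial cells.

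Depth of the nucleus went with this share. Excitatory neurons had a median of 6087 to 9450 UMIs per nucleus, microglia 1120 to 1421 and endothelial cells 1202 to 1638. Within excitatory neurons of WT replicate 1 the share fell from 0.376% in nuclei of 1000 to 2000 UMIs to 0.0881% in nuclei of 10000 to 50000 UMIs, while the mean number of ribosomal protein UMIs per nucleus went from 6.34 to 13.3. At 1000 to 2000 UMIs the share was 0.285% to 0.589% in excitatory neurons, 0.273% to 0.784% in inhibitory neurons, 0.199% to 0.752% in oligodendrocytes, 0.543% to 1.08% in microglia and 2.38% to 3.05% in endothelial cells. At that matched depth the ranges of the first 3 classes overlapped over the libraries, and their order changed within libraries. Oligodendrocytes were below excitatory neurons in WT replicate 1 (0.321% against 0.376%), HET replicate 1 (0.290% against 0.338%) and HET replicate 2 (0.199% against 0.285%). They were above them in WT replicate 2 (0.752% against 0.589%). Inhibitory neurons were below excitatory neurons in WT replicate 1 (0.341%) and HET replicate 2 (0.273%) and above them in WT replicate 2 and HET replicate 1. Endothelial cells stayed above all other classes in each library, and a nucleus of 1000 to 2000 UMIs held on average 33.8 to 43.0 ribosomal protein UMIs there against 4.65 to 10.1 in excitatory neurons. In endothelial cells the share was higher, not lower, in nuclei of 2000 to 5000 UMIs (3.03% to 4.79%) than in those of 500 to 1000 UMIs (1.43% to 2.34%).

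**Figure D2:**
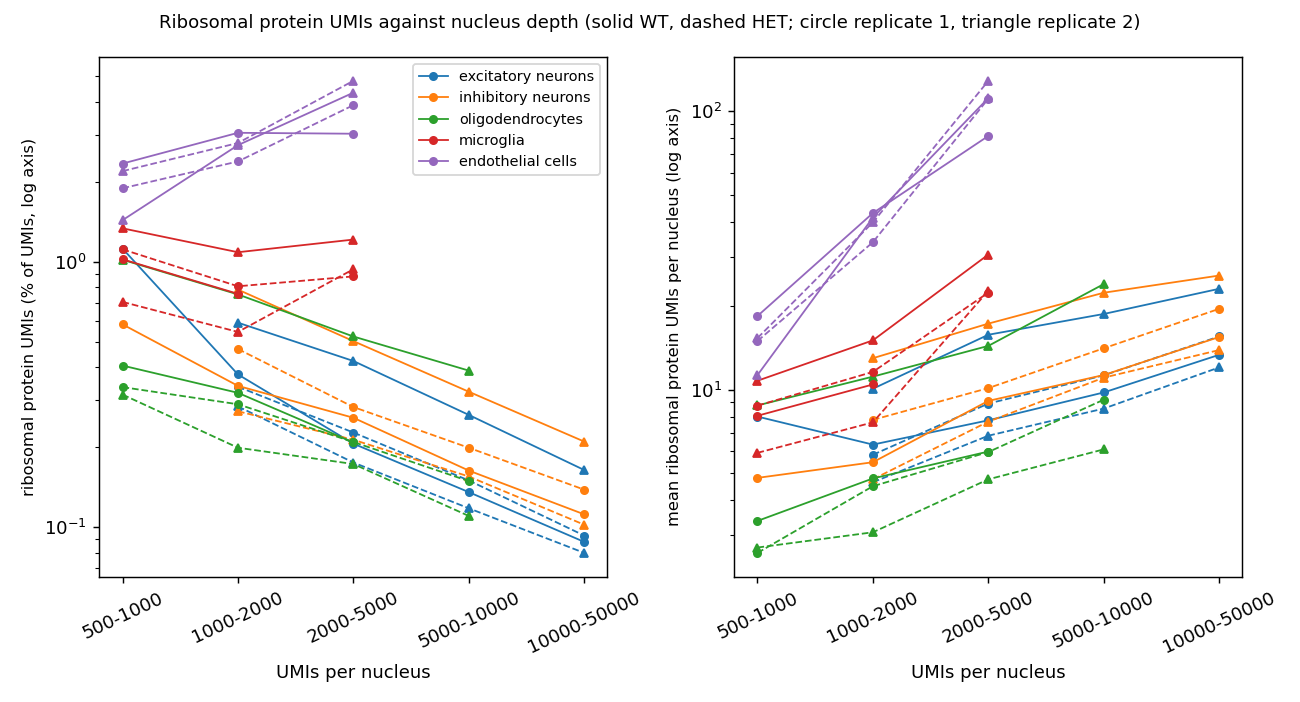
Ribosomal protein UMIs by nucleus depth in bins with at least 10 nuclei, as a percentage of UMIs (left, log axis) and as the mean number per nucleus (right, log axis), 1 line per class and library. In excitatory neurons of WT replicate 1 the percentage goes from 0.376% at 1000 to 2000 UMIs to 0.0881% above 10000 while the number per nucleus goes from 6.34 to 13.3, and in endothelial cells both are higher at 2000 to 5000 UMIs than at 500 to 1000.

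Gene by gene, the class comparisons used counts summed per library and class, with the library as a block, in edgeR's quasi-likelihood test (TMM scaling, two-sided, Benjamini-Hochberg adjusted over all genes tested, called under 0.05). In inhibitory neurons 57 of 60 members tested were higher than in excitatory neurons (all genes: 35.5% called higher), with a median log2 difference of 0.56. In oligodendrocytes 51 of 55 were higher (all genes: 31.7%), median 1.07. In microglia 60 of 61 were higher (all genes: 28.3%), median 2.26, and in endothelial cells 79 of 79 (all genes: 27.1%), median 4.32. Endothelial cells also exceeded microglia in 77 of 77 members tested (all genes: 35.9%), by a median of 1.90. No member was called lower in any of the 5 comparisons, nor by DESeq2 in the 4 against excitatory neurons. A gene was tested if at least 10% of the nuclei of either class held a UMI of it, so that a member could enter through the class in which it was higher, and these counts are a description of the members that entered. With no such filter 83 members were tested in each of the 4 comparisons with excitatory neurons, and 69, 69, 76 and 82 were called higher (all genes: 22.1%, 16.6%, 13.5% and 15.1%) and 0 lower. The median log2 difference of all genes tested lay between -0.28 and 0.03 in the 4 comparisons with excitatory neurons.

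Among nuclei of 1000 to 2000 UMIs only, a setting added after the depth relation was seen, these differences shrank. Of 38 members tested in inhibitory neurons 0 were called higher (all genes: 10.4%), with 4 at an unadjusted p under 0.05 and a median of 0.35. In oligodendrocytes 3 of 35 were called (all genes: 31.5%), median 0.38. Microglia kept 37 of 53 (all genes: 39.0%), median 1.12, and endothelial cells 76 of 76 (all genes: 36.9%), median 2.77. The excitatory sums at this depth held 105 to 846 ribosomal protein UMIs per library, which limits what could be called.

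Per kilobase of merged exon, the most abundant members were nearly the same in every class. *Rplp1*, an acidic protein of the ribosomal stalk that recruits elongation factors, led in all 5 classes, with a mean of 67.6 CPM per kilobase in excitatory neurons and 1838 in endothelial cells. *Rps29*, a zinc-binding protein of the small subunit, followed in all classes but endothelial cells, where *Rpl38*, a large subunit protein, stood above it. The stalk base *Rplp0* ranked far below its partner *Rplp1*, at 4.28 CPM per kilobase in excitatory neurons. At the other end, *Rpl13a*, which also serves in the GAIT complex that silences inflammatory messages, had 1442 UMIs in all kept nuclei and stood at rank 81 or 82 of 85 in each class. *Rpl13a* overlaps another annotated gene on the same strand, and reads in that overlap cannot be told apart. UMIs are counted near the 3′ end, so that a value per kilobase puts long genes lower. Of the 85 genes, 61 have at least 1 named pseudogene in GENCODE M21 (300 in all), and reads shared with a copy may not have been counted.

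Paralogs known from other tissues were close to absent. *Rpl10l*, an autosomal copy of *Rpl10* used in testis, had 1 UMI in all kept nuclei, and *Rpl39l*, likewise of testis, had 8. *Rpl3l*, which replaces *Rpl3* in striated muscle, had 134 UMIs, 40 and 40 in WT and 28 and 26 in HET libraries. Of these 61 lay in excitatory and 21 in inhibitory neurons, and 0 in oligodendrocytes, microglia or endothelial cells. *Rpl3l* made 1.28% to 1.88% of the pair's UMIs in excitatory neurons. A count of 0 in endothelial cells, beside 33 to 86 *Rpl3* UMIs per library, allows up to 4.199% in the deepest library (exact binomial 95% limit), so that a share as low as in excitatory neurons was not detectable there.

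*Rpl22* and *Rpl22l1*, whose proteins can occupy the same place on the large subunit, changed their ratio between classes. In excitatory neurons *Rpl22l1* made 51.7% and 50.3% of the pair's UMIs in the WT and 52.0% and 51.1% in the HET libraries. In inhibitory neurons it made 61.3%, 58.7%, 60.0% and 56.5%, higher than in excitatory neurons in each library by a mean of 7.83 percentage points (SD 1.73, n = 4; exact sign-flip p = 0.12). In endothelial cells it made 25.4%, 17.6%, 26.5% and 22.9%, lower in each library by a mean of 28.2 points (SD 3.18, n = 4; exact sign-flip p = 0.12). The groups did not overlap. In microglia the shares ran from 27.3% to 57.1% on 13 to 28 UMIs of the pair per library and overlapped those of excitatory neurons.

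*Rpl7l1*, a nucleolar relative of *Rpl7* that works in large subunit assembly, was the larger part of its pair in excitatory neurons, with 64.2%, 51.8%, 67.9% and 69.3% of UMIs by library (WT replicates 1 and 2, HET replicates 1 and 2). The share was 59.3%, 42.5%, 61.8% and 66.3% in inhibitory neurons, 51.9%, 29.7%, 36.4% and 52.9% in oligodendrocytes, 41.2%, 25%, 20% and 23.1% in microglia, and 10.3%, 21.4%, 19.6% and 11.3% in endothelial cells. In each of the 4 classes it was lower than in excitatory neurons in 4 of 4 libraries, by 5.81 points (SD 2.65, n = 4) in inhibitory neurons up to 47.6 points (SD 12.2, n = 4) in endothelial cells, each with an exact sign-flip p = 0.12. The level of *Rpl7l1* itself, in CPM, ran from 11.7 to 16.1 in excitatory neurons and from 47.2 to 102 in endothelial cells, and that of *Rpl7* from 5.69 to 15 and from 324 to 410.

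*Rps27l*, a paralog of *Rps27* known as a target of p53, went the other way in endothelial cells. It made 8.38%, 6.97%, 9.39% and 6.37% of the pair's UMIs in excitatory neurons and 13.04%, 17.9%, 27.1% and 33.3% in endothelial cells, on 7 to 19 *Rps27l* UMIs per library. The mean difference was 15.1 points (SD 9.55, n = 4; exact sign-flip p = 0.12), with every library higher. Both HET endothelial libraries lay above both WT libraries (exact permutation p = 0.33, the smallest 2 against 2 allow). In the other classes the genotypes overlapped. The share of *Rpl36al* in its pair with *Rpl36a* was 25.8% on average in excitatory neurons, and the mean difference from it was 1.57 points or less in size in oligodendrocytes, microglia and endothelial cells, with SDs of 8.08 to 18.4. In inhibitory neurons it was lower by 3.21 points (SD 1.06, n = 4; exact sign-flip p = 0.12), in 4 of 4 libraries. Separation of the genotypes without overlap was not particular to *Rps27l*. The share of *Rpl36al* was higher in HET in excitatory neurons (means 29.0% and 22.6% in WT), inhibitory neurons (25.5% and 19.7%) and microglia (39.7% and 15.1%, on few UMIs). That of *Rpl3l* was higher in HET in inhibitory neurons (2.79% and 0.83%). Over the 28 pair and class comparisons no adjusted p went below 0.292.

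**Figure D3:**
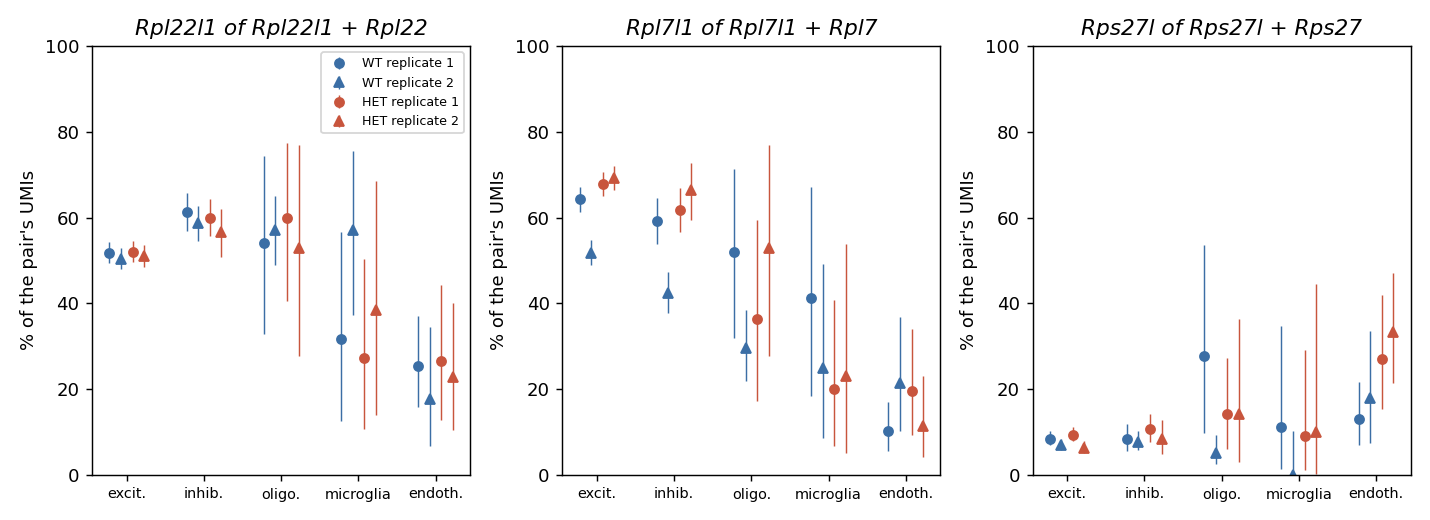
Share of a paralog in the UMIs of its pair (y axis, percent, from 0 to 100) by class and library, for *Rpl22l1*, *Rpl7l1* and *Rps27l*, with exact binomial 95% intervals that cover counting error only. *Rpl22l1* drops from between 50.3% and 52.0% in excitatory neurons to between 17.6% and 26.5% in endothelial cells, *Rpl7l1* is lower from class to class, and *Rps27l* is higher in endothelial cells than in excitatory neurons in each library.

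To see which genes departed from the common shift, counts were also scaled to the ribosomal total, so that each value is a gene's share of all ribosomal protein UMIs. On this scale nearly all other genes move, and the share of all genes called is 88.6% in inhibitory neurons, 87.8% in oligodendrocytes, 96.8% in microglia and 97.0% in endothelial cells, against which members called in either direction numbered 25 of 60, 13 of 55, 22 of 61 and 28 of 79. The adjustment over all genes is therefore mild here, and library by library directions are given too. Of the 55 members tested in all 4 classes, 5 were called lower in each, namely *Rpl5*, *Rpl6*, *Rpl7l1*, *Rpl15* and *Rpl22*, and 0 were called higher in each. These 5 were lower in 4 of 4 libraries in each class, except *Rpl22* in endothelial cells, where it was 3 of 4.

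*Rpl6*, a large subunit protein, had the most UMIs of all members, and its rank depended on the class. It took 40.2, 30.9, 41.1 and 46.9 of 1000 ribosomal protein UMIs in excitatory neurons of the 4 libraries (WT replicates 1 and 2, HET replicates 1 and 2), but 16.0, 10.6, 14.5 and 15.9 in endothelial cells. The log2 difference in share was -1.48 ± 0.34 (SE) in endothelial cells, -0.99 ± 0.22 in microglia, -0.66 ± 0.18 in oligodendrocytes and -0.37 ± 0.06 in inhibitory neurons. *Rpl15*, a core protein of the large subunit, took a mean of 26.4 of 1000 in excitatory neurons (SD 5.82, n = 4) and 11.2 in microglia (SD 1.06, n = 4), a log2 difference of -1.19 ± 0.24 with every library lower. In oligodendrocytes *Rpl15* fell by 1.10 ± 0.20. *Rpl5*, which carries the 5S RNA and can bind the p53 regulator *Mdm2*, fell by 1.04 ± 0.26 in microglia and by 0.72 ± 0.21 in oligodendrocytes. Its partner in the 5S particle, *Rpl11*, went the other way in inhibitory neurons (0.36 ± 0.09) and oligodendrocytes (0.41 ± 0.20), and was higher in 4 of 4 libraries in both.

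*Rpl22l1* and *Rpl7l1* had the lowest log2 differences of all in endothelial cells and microglia on this scale. In endothelial cells *Rpl22l1* was at -2.47 ± 0.33, with 11.9, 8.45, 14.2 and 13.6 of 1000 in excitatory neurons against 2.29, 2.06, 2.42 and 1.88, and *Rpl7l1* at -2.31 ± 0.33. In microglia *Rpl7l1* was at -1.77 ± 0.35 and *Rpl22l1* at -1.30 ± 0.32, and both were lower in 4 of 4 libraries. *Rpl31* (-0.80 ± 0.29) and *Rps27* (-0.80 ± 0.29) completed the 5 lowest in endothelial cells, *Rpl22* (-0.88 ± 0.25 in oligodendrocytes, -0.39 ± 0.08 in inhibitory neurons) and *Rpl27a* (-0.29 ± 0.06 in inhibitory neurons) those of the other classes.

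Members with a larger part in the glial and vascular classes came from both subunits. *Rpl18* took 6.40, 6.74, 6.54 and 5.95 of 1000 ribosomal protein UMIs in excitatory neurons and 17.5, 16.5, 17.5 and 12.4 in endothelial cells, a log2 difference of 1.31 ± 0.28. *Rpl7* (1.04 ± 0.27), the stalk base *Rplp0* (0.98 ± 0.27) and *Rps27l* (0.96 ± 0.33) were also among the highest there, each higher in 4 of 4 libraries. In microglia *Rps9* (1.11 ± 0.21), a protein of the small subunit body, was among the highest, with *Rplp1* (0.86 ± 0.21), *Rps3* (0.86 ± 0.25), which lines the entry of the messenger RNA, and *Rps4x* (0.82 ± 0.25), which is encoded on the X chromosome. For *Rps9* this meant 26.3, 16.1, 25.3 and 23.9 of 1000 against 10.2 to 10.7 in excitatory neurons. *Rps29* (0.48 ± 0.19), *Rplp1* (0.42 ± 0.19), *Rpl11*, *Rpl13* (0.38 ± 0.18) and *Rps27a* (0.37 ± 0.20, adjusted p = 0.0723 in edgeR's quasi-likelihood test) headed oligodendrocytes. In inhibitory neurons *Rpl11*, *Rps3* (0.28 ± 0.09), *Rpl23* (0.28 ± 0.07) and *Rpl26* (0.22 ± 0.08) were among the highest.

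**Figure D4:**
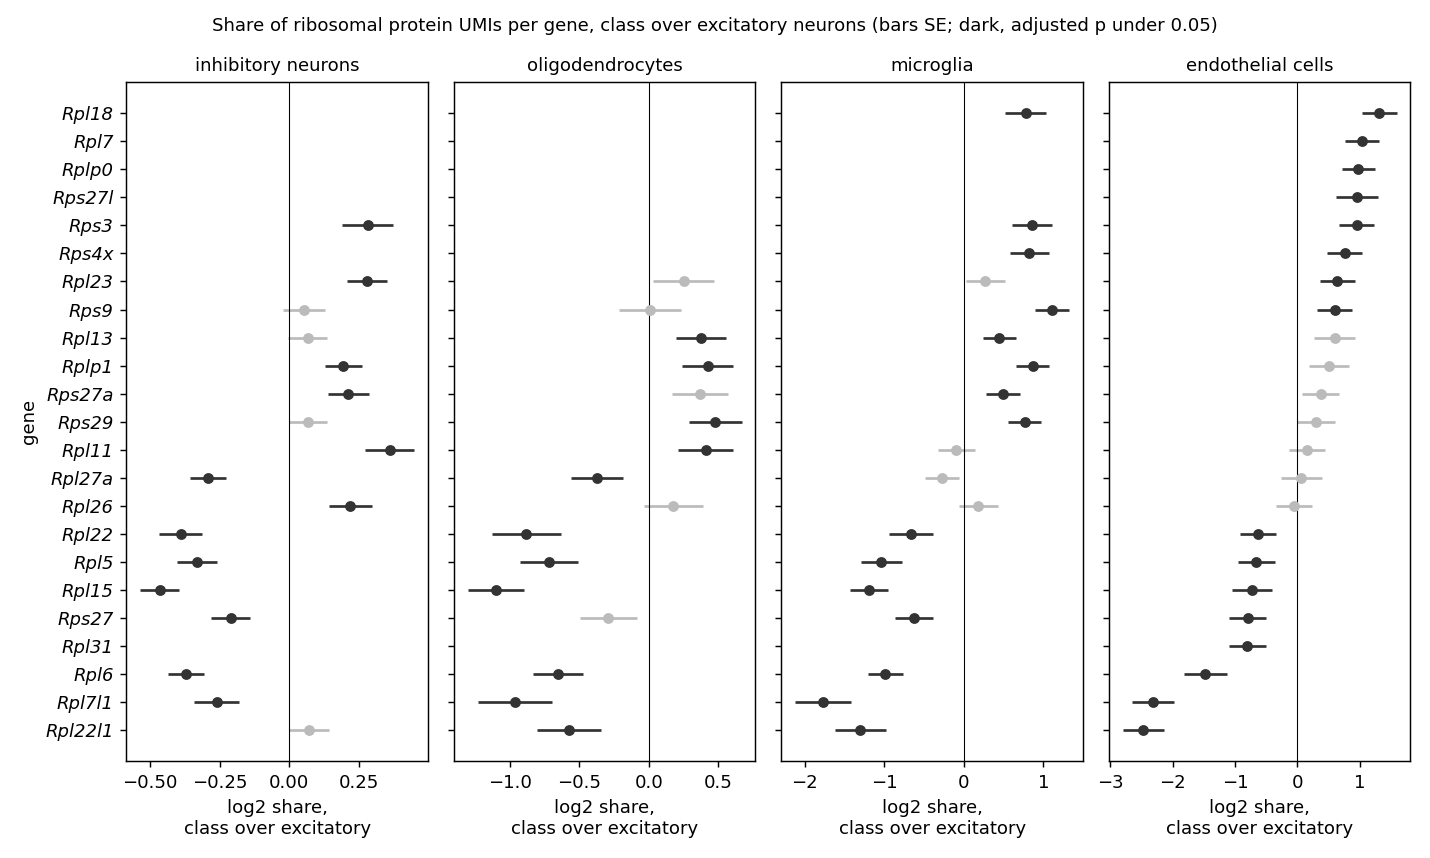
Log2 difference in share of ribosomal protein UMIs, class over excitatory neurons (x axis, bars are SE), for genes named in the text that were among the 5 lowest or 5 highest of any class; dark points have an adjusted p under 0.05 in edgeR's quasi-likelihood test, and genes not tested in a class have no point. *Rpl22l1* and *Rpl7l1* lie lowest in endothelial cells, at -2.47 and -2.31, and *Rpl18* highest, at 1.31.

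The length of the genes was set beside these values as a description. Over the 4 classes Pearson's r between the log2 difference and the log10 intron length ran from 0.01 to 0.23 and Spearman's rho from -0.08 to 0.06, and with merged exon length r ran from -0.32 to -0.11 and rho from -0.29 to -0.09. The exon values farthest from 0 were those of oligodendrocytes (r = -0.32, rho = -0.29, 55 genes), where the 5 lowest genes had a median of 4584 intron and 3140 exon bases, the 5 highest 760 and 1972, and all tested 1032 and 2027. Across the 79 genes tested in endothelial cells, which are not independent replicates and share the same libraries, r with intron length was 0.23 and rho 0.04. With merged exon length r was -0.17 and rho -0.19. The 5 lowest genes in endothelial cells had a median intron length of 1621 bases, the 5 highest 1337 and all tested 1167. *Rpl22l1* (chr3:28805436-28807424, plus strand) is covered by exons of its transcripts over its full 1989 bases, *Rpl7l1* (chr17:46773907-46782672, minus strand) has 5271 bases of intron, and *Rpl6* (chr5:121204481-121209241, plus strand) 1621. Of the 85 members, 6 overlap another gene on the same strand and 22 a gene on the opposite strand, among them *Rpl15* with *Nkiras1*, *Rpl5* with *Fam69a* and *Rpl18* with *Sphk2*. Reads in a same-strand overlap cannot be told apart. The 3′ chemistry keeps the strand of a message, and how opposite-strand reads were counted is not given in the sources used here.

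The other members named for their roles were also higher than in excitatory neurons (TMM scale, edgeR's quasi-likelihood test). The ubiquitin fusion *Rps27a* was higher by 4.71 ± 0.20 (SE) on the log2 scale in endothelial cells and 2.85 ± 0.23 in microglia, and *Fau*, fused to a ubiquitin-like protein, by 5.11 ± 0.21 and 3.102 ± 0.21. *Rpsa*, a small subunit protein also known as a laminin receptor, was higher by 4.25 ± 0.20 and 2.27 ± 0.24. *Rplp2*, the second stalk protein, was higher by 4.51 ± 0.21 and 2.59 ± 0.26. *Rpl37* and *Rps29* were higher by 1.35 ± 0.15 and 1.52 ± 0.12 in oligodendrocytes, by 2.73 ± 0.26 and 3.11 ± 0.20 in microglia and by 4.13 ± 0.21 and 4.63 ± 0.20 in endothelial cells. All of these passed an adjusted p of 0.05 over nuclei of all depths. At the matched depth given above, few members were still called higher in oligodendrocytes, against most of those tested in microglia and all in endothelial cells. The part of depth in the values of these genes was not tested. As a share of the ribosomal total, *Fau* was called higher in inhibitory neurons (0.18 ± 0.07), microglia (0.75 ± 0.21) and endothelial cells (0.75 ± 0.30), *Rps27a* in inhibitory neurons (0.21 ± 0.07) and microglia (0.49 ± 0.22), and *Rps29* in microglia (0.77 ± 0.21) and oligodendrocytes. *Rpsa*, *Rplp2* and *Rpl37* were called in none of the 4 classes on that scale. *Rpl13a* and *Rpl3l* did not pass the detection filter in these comparisons.

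WT replicate 2 did not lift all members alike. In excitatory neurons all 82 members with at least 100 UMIs were highest in that library. The median was 2.35 times the mean of the other 3 libraries, and the ratio ran from 1.24 to 4.15. How many of all genes were highest in that library was not counted, here or in inhibitory neurons. These counts therefore do not set the members apart from other genes. *Rplp1* was at 78.3 CPM against 19.98, 20.1 and 16.5 (a ratio of 4.15), *Rps29* at 62.1 against 21.2, 16.4 and 14.4 (3.59) and *Rpl26* at 37.3, a ratio of 3.08. The smallest ratios belonged to *Rpl7l1* (16.1 against 11.7, 14.3 and 12.9, a ratio of 1.24), *Rpl22l1* (1.46), *Rpl5* (1.53) and *Rpl22* (1.54). *Rpl6* (1.66) and *Rpl15* (1.74) followed closely, so the 6 members that took a smaller part of the ribosomal total in oligodendrocytes, microglia and endothelial cells alike were among the 8 that WT replicate 2 raised least. Both sets of values use the same excitatory libraries. In inhibitory neurons 81 of 82 members were highest in WT replicate 2, by a median of 2.29 times.

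*Rpl37* and *Rps29* are also the ribosomal genes that were measured by qRT-PCR in white matter. The genotype comparison asked whether the members differ between *Csf1r*+/- and WT brains in each class, at 2 months, before symptoms. Counts were summed per library and tested as HET over WT in each class alone, and members were counted at the study's limit of an unadjusted p under 0.01 and at an adjusted p under 0.05. The study set its limit on edgeR's likelihood-ratio test, per cluster. Counts below come from the quasi-likelihood test unless another is named. That test put fewer members past the limit in excitatory neurons, inhibitory neurons, oligodendrocytes and all nuclei. A member was tested if it passed the detection filter in either genotype, so it could enter through the genotype in which it was higher. Shares of all genes are given for the main quasi-likelihood counts at these limits, not for the signs or medians of the estimates. Most counts at an unadjusted p under 0.05, by other tests or under alternative settings have no such share. Those counts cannot be set against the rate of all genes. Each library held the nuclei of a separate mouse, by the study's methods. The p-values rest on the spread between libraries, in which mouse and preparation of nuclei cannot be told apart.

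In excitatory neurons 58 of 59 members tested had a lower point estimate in HET, with a median log2 fold change of -0.77, but 0 were lower at p under 0.01 (all genes: 0.18%) and 0 were called after adjustment (all genes: 0%) in edgeR's quasi-likelihood test. An unadjusted p under 0.05 was passed by 16, and edgeR's likelihood-ratio test and DESeq2 put 9 and 10 past p under 0.01 and 0 past adjustment. These further counts have no share of all genes beside them and cannot be set against it. *Rps29* stood at 21.2 and 62.1 CPM in WT and at 16.4 and 14.4 in HET, a log2 fold change of -1.39 ± 0.46 (SE; adjusted p = 1). *Rpl37* stood at 14.3 and 35.6 in WT and at 10.8 and 10.3 in HET, -1.19 ± 0.40 (adjusted p = 1). For both genes each HET library was below each WT library, but WT replicate 1 was nearer to the HET libraries than to WT replicate 2. Without WT replicate 2 the median was -0.18 over 52 members and 0 passed p under 0.01 (5 passed p under 0.05), and *Rps29* and *Rpl37* were at -0.47 and -0.44. Without WT replicate 1 the median was -1.21, 69 of 73 members were lower at p under 0.01 (all genes: 2.12%) and 10 passed adjustment (all genes: 0.32%).

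*Rps24* (-1.05 ± 0.30), *Rps16* (-1.003 ± 0.30) and *Fau* (-0.99 ± 0.32) had the smallest p in excitatory neurons. *Rps24* stood at 24.7 and 48.5 CPM in WT and at 18.1 and 16.2 in HET. With WT replicate 2 left out the 3 genes were at -0.53, -0.51 and -0.43. *Rpl7l1* was at 11.7 and 16.1 in WT and 14.3 and 12.9 in HET, with overlapping groups and a log2 fold change of 0.00 ± 0.18, and *Rpl22l1* at -0.22 ± 0.21. The share of *Rpl7l1* in its pair was higher in both HET libraries (67.9% and 69.3%) than in both WT libraries (64.2% and 51.8%; exact permutation p = 0.33). It was also higher in HET in inhibitory neurons (means 64.1% in HET and 50.9% in WT), but lower in microglia (21.5% and 33.1%). The libraries of the genotypes did not overlap in either class. The microglia shares rested on 7 and 5 *Rpl7l1* UMIs in WT and 5 and 3 in HET. Beside them stood 10 and 15 *Rpl7* UMIs in WT and 20 and 10 in HET. The exact binomial intervals of these microglia shares overlapped widely, so the direction in microglia is not settled. In oligodendrocytes and endothelial cells the libraries overlapped.

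In inhibitory neurons 65 of 66 members tested had a lower estimate in HET, median -0.73, with 0 lower at p under 0.01 (all genes: 0.0862%), 0 after adjustment (all genes: 0%) and 12 at p under 0.05 (5 and 3 at p under 0.01 by the likelihood-ratio test and DESeq2). *Rps29* stood at 33.1 and 101 CPM in WT and at 30.1 and 20.6 in HET (-1.38 ± 0.49), followed in order of p by *Rpl37* (-1.14 ± 0.41), *Rplp2* (-0.67 ± 0.24), *Rps25* (-1.03 ± 0.37) and *Rps21* (-1.07 ± 0.39). Without WT replicate 2 the median was -0.06, with 22 members higher and 32 lower by sign, and without WT replicate 1 it was -1.17 with 71 of 74 lower at p under 0.01 (all genes: 3.21%) and 68 past adjustment (all genes: 2.1%). Over all kept nuclei 63 of 64 estimates were lower, median -0.74, with 0 lower at p under 0.01 (all genes: 0.107%), 0 after adjustment (all genes: 0%) and 18 at p under 0.05; the likelihood-ratio test and DESeq2 put 8 and 13 past p under 0.01. There the median was -0.20 without WT replicate 2, and without WT replicate 1 it was -1.12 with 70 of 73 lower at p under 0.01 (all genes: 2.57%) and 0 past adjustment (all genes: 0%; 71 at p under 0.05).

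Oligodendrocytes had the lowest median. All 46 members tested had a lower estimate in HET, median -1.23, and 11 were lower at p under 0.01 (all genes: 5.19%), while 0 passed adjustment (all genes: 0%; 40 passed an unadjusted p under 0.05, and 11 passed adjustment in the likelihood-ratio test and 0 in DESeq2). Most of the 46 did not pass the detection filter without WT replicate 2. Their common sign thus describes members that entered with that library. *Rpl38*, mutated in mice with short tails, had the smallest p. It stood at 61.9 and 98.6 CPM in WT and at 24.2 and 12.9 in HET, on 37, 211, 24 and 8 UMIs, a log2 fold change of -2.09 ± 0.36 (adjusted p = 0.12), and -1.66 without WT replicate 2. Both HET libraries lay well below both WT libraries. *Rps29* followed another pattern, with 67.0 and 189 in WT and 51.4 and 35.5 in HET (-1.62 ± 0.44, adjusted p = 0.14), where WT replicate 1 was nearer to HET than to its partner. *Rpl41*, the shortest ribosomal protein (-1.12 ± 0.29), *Rpl27a* (-1.26 ± 0.33) and *Rpl9* (-1.34 ± 0.36) made up the 5 with the smallest p. *Rpl37* was at -1.31 ± 0.46 (adjusted p = 0.28). Only 10 members passed the detection filter without WT replicate 2, 1 of them, *Rpl38*, lower at p under 0.01 (all genes: 3.22%), with a median of -0.57. Without WT replicate 1 all 57 tested were lower at p under 0.01 (all genes: 9.22%) and 56 passed adjustment (all genes: 7.64%). Without HET replicate 1 it was 16 of 46 at p under 0.01 (all genes: 2.72%), and without HET replicate 2 it was 0 of 46 (all genes: 3.57%; 1 at p under 0.05). Markers of neurons moved with the genotype in this class. The 4 pan-neuronal markers, all 4 detected in each library, summed to 1023 and 1059 CPM in WT oligodendrocytes and to 483 and 700 in HET, the 8 inhibitory markers (6 to 8 detected) to 316 and 473 against 215 and 203, and the 7 excitatory markers (all 7 detected) to 136 and 198 against 81.7 and 102. None of these groups overlapped, and their part in the result was not tested.

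In microglia, the cells in which *Csf1r* acts, 54 of 61 estimates were lower in HET, median -0.48. At p under 0.01, 3 members were lower (all genes: 7.85%), and 1 was called after adjustment (all genes: 5.65%), so neither share exceeded that of all genes. The called gene was *Rps21*, a small subunit protein, at 202 and 243 CPM in WT and 98.4 and 109.5 in HET, on 40, 46, 24 and 19 UMIs. Its log2 fold change was -1.19 ± 0.28 (adjusted p = 0.0119 in edgeR's quasi-likelihood test), and the groups did not overlap. It was -1.05 without WT replicate 2 (adjusted p = 0.102 in edgeR's quasi-likelihood test) and -1.11 without HET replicate 1 (adjusted p = 0.116), and so was not called without either. *Rpl38* again stood lower, at 80.7 and 127 in WT and 49.2 and 34.6 in HET (-1.35 ± 0.43, adjusted p = 0.0729). *Rps29* was at 247 and 418 in WT and 258 and 132.5 in HET, with overlapping groups (-0.80 ± 0.29, adjusted p = 0.118), and *Rpl37* at 141 and 138 against 119 and 104 (-0.40 ± 0.32, adjusted p = 0.633). *Rps24* (-0.79 ± 0.29) and *Rpl34* (-0.93 ± 0.38) completed the 5 smallest p. DESeq2 put 0 members past p under 0.01. The median was -0.16 without WT replicate 2, with 1 of 53 members lower at p under 0.01 (all genes: 6.5%) and 0 past adjustment (all genes: 4.81%; 4 at p under 0.05). The count lower at p under 0.01 was 8 of 66 without WT replicate 1 (all genes: 6.76%), 8 of 59 without HET replicate 1 (all genes: 4.11%) and 1 of 63 without HET replicate 2 (all genes: 7.36%), and 6, 2 and 1 passed adjustment (all genes: 4.66%, 1.47% and 5.15%). Neuronal markers were lower in HET here too. The 4 pan-neuronal markers, all detected in each library, summed to 1680 and 1604 CPM in WT and to 783 and 1025 in HET microglia, the 8 inhibitory markers (6 or 7 detected) to 449 and 392 against 225 and 248, and the 7 excitatory markers (5 to 7 detected) to 227 and 249 against 123 and 202, without overlap. Their part in the result was not tested.

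The direction in microglia rested on how the class was drawn. A first rule without the demand for a UMI of *C1qa*, *C1qb* or *C1qc* let in a few nuclei rich in ribosomal protein and MHC class II UMIs, 1 in WT replicate 1, 3 in HET replicate 1 and 2 in HET replicate 2, in which 13.8% to 35.1% of UMIs were ribosomal. With them the median log2 fold change of HET over WT was 1.11. The demand for C1q was set after this was seen. Among microglia nuclei with under 1% mitochondrial UMIs, 18 to 49 per library, the median was 0.31.

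In endothelial cells most estimates were higher in HET over all depths. Of 80 members tested 58 had a higher estimate in HET, median 0.11, 0 were lower at p under 0.01 (all genes: 5.61%), 1 was higher (all genes: 0.783%) and 0 passed adjustment (all genes: 3.16%). An unadjusted p under 0.05 was passed by 7, and DESeq2 put 0 past p under 0.01. *Rps27l* was the one that was higher, at 43.5 and 79.4 CPM in WT and 114 and 166 in HET, on 12, 7, 13 and 19 UMIs (1.29 ± 0.46, adjusted p = 0.129). Without WT replicate 2 it was 1.57 (adjusted p = 0.0449 in edgeR's quasi-likelihood test), without WT replicate 1 0.84 (adjusted p = 0.697) and without HET replicate 2 0.98 (adjusted p = 0.584). *Rps25* (0.70 ± 0.30), *Rpl5* (0.59 ± 0.28) and *Rps10* (0.55 ± 0.26) were also among those with the smallest p. *Rps10* overlaps a longer annotated read-through gene on the same strand. *Rps29* stood at 621 and 930 in WT and 604 and 645 in HET, with overlapping groups (-0.34 ± 0.26), and *Rpl37* at 276 and 295 against 350 and 349, without overlap (0.22 ± 0.29, adjusted p = 0.862). Without HET replicate 2 the median was -0.04. Among endothelial nuclei of 1000 to 2000 UMIs, 24 to 107 per library, the direction turned. The median there was -0.20 with 58 of 76 estimates lower, and the ribosomal share was 3.05% and 2.74% in WT and 2.38% and 2.79% in HET, with overlapping groups. The 4 pan-neuronal markers (3 or 4 detected) summed to 1492 and 1111 CPM in WT and to 569 and 898 in HET endothelial cells, the 8 inhibitory markers (4 to 7 detected) to 454 and 397 against 210.0 and 131, and the 7 excitatory markers (3 to 7 detected) to 218 and 193 against 192 and 122. Their part in the result was not tested. Endothelial nuclei numbered 202 in WT replicate 1 and 53 to 66 in the other libraries. Of the 8 mural markers *Rgs5* alone was abundant in this class (1746 to 2047 CPM), and no other exceeded 52.3.

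**Figure D5:**
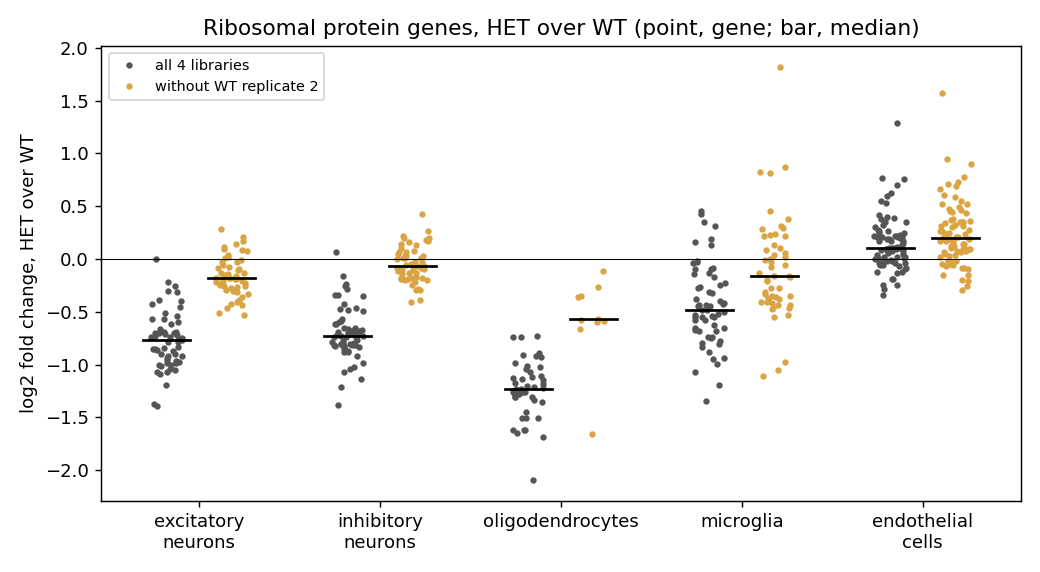
Log2 fold change of each member tested, HET over WT, by class (points; the bar is the median), with all 4 libraries in grey and without WT replicate 2 in yellow. The medians are -0.77, -0.73, -1.23, -0.48 and 0.11 with all libraries and -0.18, -0.06, -0.57, -0.16 and 0.20 without that library. The detection filter was applied anew without it, so the medians are not over the same genes.

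Scaling to the ribosomal total divides by the summed members and removes a shift common to them by construction. Medians near 0 on that scale were thus fixed in advance and say nothing about a common shift. The genotype medians there were within 0.06 of 0 in excitatory neurons, inhibitory neurons, oligodendrocytes and microglia. No class had a member called (0 in edgeR's quasi-likelihood test), with 1 at an unadjusted p under 0.05 in endothelial cells and 0 in the others. For the share of ribosomal protein UMIs itself the exact permutation test of 2 libraries against 2 cannot go below p = 0.33 and so could not separate the genotypes. Both HET libraries lay below both WT libraries in excitatory neurons (0.188% ± 0.0963 in WT and 0.108% ± 0.00916 in HET, SD, n = 2 each), in oligodendrocytes (0.445% ± 0.261 and 0.206% ± 0.0336) and over all kept nuclei (0.249% ± 0.114 and 0.147% ± 0.0191), each at that smallest p. In inhibitory neurons, microglia (0.967% ± 0.257 and 0.756% ± 0.146) and endothelial cells the libraries overlapped (exact permutation p = 0.667).

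The difference between classes in the genotype effect was tested as an interaction with excitatory neurons. In endothelial cells all 79 members had a higher HET over WT value than in excitatory neurons, by a median of 0.89, and 12 were called (all genes: 0.844%), among them *Rps10* (1.47 ± 0.30), *Rplp1* (1.17 ± 0.28) and *Rps24* (1.25 ± 0.31). The median was 0.34 without WT replicate 2, and 0 were called (4 passed an unadjusted p under 0.05). Without HET replicate 1, 3 were called (all genes: 0.178%), and without WT replicate 1 or without HET replicate 2 0 were called, with 64 and 25 at an unadjusted p under 0.05. In inhibitory neurons 0 of 60 were called (all genes: 0%), in oligodendrocytes 0 of 55 (all genes: 1.47%) and in microglia 0 of 61 (all genes: 0.373%), with medians of 0.07, -0.25 and 0.39 and 2, 4 and 6 members at an unadjusted p under 0.05 (edgeR's quasi-likelihood test); without WT replicate 1, 1 was called in microglia. The likelihood-ratio test and DESeq2 were not run on the interaction.

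Other parts of the translation machinery were set beside the members with the same fits, in which 27.1% of all genes were called higher and 35.9% lower in endothelial cells and 28.3% higher and 32.8% lower in microglia. Of the mitochondrial ribosomal protein genes (78), which serve the separate ribosome of mitochondria, 18 of 29 tested were higher and 1 lower in endothelial cells than in excitatory neurons with a median log2 difference of 1.23, and 3 of 24 were higher and 2 lower in microglia (median 0.08). Of 15 translation factors, which include *Eef1a1* and *Pabpc1* and are often made from messages of the same start type, 14 of 15 were higher in endothelial cells (median 3.74) and 8 of 11 in microglia (1.12). Of 15 ribosome assembly factors 4 of 10 were higher and 1 lower in endothelial cells (median -0.27), and 3 of 10 were higher and 0 lower in microglia (0.23). Abundant cytosolic messages of other functions, such as *Tmsb4x* and *Fth1*, moved as the ribosomal genes did, 16 of 16 higher in endothelial cells (median 4.37) and 10 of 11 in microglia (1.61). Nuclear retained RNAs such as *Malat1* and *Meg3* went the other way, with 5 of 7 lower and 1 higher in endothelial cells (median -2.11) and 4 of 6 lower and 0 higher in microglia (-1.97). Neither list was chosen for even levels over cell types. Cell type and place in the cell therefore cannot be told apart in these values. Of the 4 genes of the GAIT complex (*Rpl13a* and *Gapdh* stand in other lists too), 3 were tested, and 1 was higher in endothelial cells and 2 in microglia.

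In the genotype comparison of excitatory neurons 0 genes of these lists passed p under 0.01 in edgeR's quasi-likelihood test, and 3 passed p under 0.05. The median log2 fold change was -0.58 for the abundant cytosolic messages and -0.25 for the translation factors, which became -0.08 and -0.05 without WT replicate 2, beside -0.77 and -0.18 for the members. Mitochondrial ribosomal proteins (-0.03), assembly factors (-0.11), GAIT genes (-0.02) and nuclear retained RNAs (0.01) stayed near 0. The abundant cytosolic messages were also lower in oligodendrocytes (median -0.83) and microglia (-0.73), but not in endothelial cells (0.06). Without WT replicate 2 these medians were -0.37, 0.07 and 0.10. The detection filter was applied anew there, so these medians are not all over the same genes. In oligodendrocytes 8 of these messages were tested against 12 with all libraries, and in microglia 8 against 11. In excitatory neurons it was 11 against 12. In microglia 3 of 11 were lower and 1 higher at p under 0.01, and 2 were lower after adjustment (edgeR's quasi-likelihood test; all genes: 7.85% lower and 5.65%).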

How the data were processed

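Single-nucleus libraries were made with a droplet kit (10x Genomics, 3′ chemistry) from brains of 2 WT and 2 *Csf1r*+/- mice. The authors aligned reads with Cell Ranger to mm10 and deposited UMI counts per gene and nucleus, filtered for empty droplets. Whether intron reads were counted is not given in the sources used here. Everything below was computed from these counts.

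The limits on nuclei were 500 to 50000 UMIs, over 200 detected genes and less than 5% of UMIs from mitochondrial genes. Doublets were not called by a tool, and nuclei with markers of several classes were left unclassed. A glial or vascular class needed at least 4 detected markers of its own (of 12 for oligodendrocytes, 14 for microglia, 12 for endothelial cells) and at most 2 of any other, excitatory neurons at least 2 of 7 and inhibitory neurons at least 3 of 8 with at least 2 of 4 pan-neuronal markers. Microglia also needed a C1q UMI, a demand added after ribosomal protein levels had been seen. The members, gene lists and tests were chosen with earlier results of these data known. Named were the paralogs with their parents, the genes with known extra roles or measured by qRT-PCR in the study, the 5 highest and 5 lowest members of each class comparison on the ribosomal total scale, the 5 with the smallest p of each genotype comparison, and members with under 10 UMIs. Some members that this rule names are not reported here.

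Sums of counts over the nuclei of a class in a library were tested with edgeR 4.0.16 (quasi-likelihood, TMM) in R 4.3.3, for genes with at least 10 counts in all and a UMI in at least 10% of the nuclei of 1 of the groups compared. The SE of a log2 value is its size divided by the square root of the test's F. Genotype was tested in each class alone, class with the library as a block, and the difference between classes in 1 fit with an interaction. DESeq2 1.42.0, the likelihood-ratio test, other scalings and filters and leaving out each library were alternatives. Shares were compared by exact permutation or sign flips (scipy 1.17.1), with 95% exact binomial intervals. UMIs were counted once per molecule, and intervals cover counting error only. On simulated counts with 200 genes changed by 1.5 on the log2 scale, 100% of them were recovered at p under 0.01 in excitatory neurons (7788 genes), 99% in oligodendrocytes (3369 genes) and 89.5% in microglia (3008 genes). These counts were drawn from pooled means with the trended dispersion of all genes. They hold no shift of a single library such as that of WT replicate 2, and so do not measure the power for the members. Gene positions came from GENCODE M21 (GRCm38) and start sequences from RefSeq.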

Additional observations from a re-analysis of the deposited data

Results flagged for a closer look

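The log2 fold change of HET over WT was higher in endothelial cells than in excitatory neurons for 12 members by the interaction test itself (edgeR's quasi-likelihood test, adjusted over all genes). The log2 differences between the classes were 1.47 for *Rps10*, 1.17 for *Rplp1*, 1.25 for *Rps24*, 1.20 for *Rpl23*, 1.497 for *Rps25* and 1.01 for *Rpl13*. They were 1.25 for *Rpl26*, 1.09 for *Rpl19*, 1.29 for *Rpl37*, 1.08 for *Rps16*, 1.04 for *Rpl9* and 1.04 for *Rps14*. Both subunits are among them. Without WT replicate 2, the library with the most mitochondrial UMIs and the highest ribosomal protein share in excitatory neurons, 0 members were called, and on the ribosomal total scale 0 were called. The part of that library's other differences in these values was not tested.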

How the results depend on the processing

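Of the values that answer a comparison, 228 under settings other than leaving out a library stayed within the limits set for a change and 59 did not; the cause of each change was not tested unless the setting itself makes it. The count of members lower in HET at p under 0.01 went from 0 to 9 (excitatory neurons), 5 (inhibitory) and 8 (all nuclei) and from 11 to 25 (oligodendrocytes) under the likelihood-ratio test; to 10, 3 and 13 in the first 3 under DESeq2, with 0 in microglia; to 4, 4, 1 and 52 without the detection filter, which adds genes; and in oligodendrocytes to 7 with RLE size factors, 7 with library totals, 7 under 1% mitochondrial UMIs and 6 under the stricter markers. At 1000 to 2000 UMIs it was 1 in inhibitory neurons and 11 in all nuclei. These counts under other tests and settings have no share of all genes beside them and cannot be set against it. Scaling to the ribosomal total removes a common shift by construction: counts lower in HET were 0 in oligodendrocytes and microglia, medians of HET over WT -0.013, -0.039, -0.030, -0.059 and -0.035 (excitatory, inhibitory, oligodendrocytes, microglia, all nuclei), and the members higher than in excitatory neurons numbered 14, 4, 13 and 15 with medians of 0.067, -0.0041, -0.096 and -0.018 (inhibitory, oligodendrocytes, microglia, endothelial). At 1000 to 2000 UMIs these were 0, 3 and 37 with medians of 0.35, 0.38, 1.12 and, in endothelial cells, 2.77; the HET median in endothelial cells was -0.20, and the ribosomal share in HET less WT -0.171 points in excitatory neurons and -0.310 in endothelial cells. Library totals, which moved the median of all genes by up to 0.31, gave 0.71 for inhibitory neurons. Under 1% mitochondrial UMIs the median in oligodendrocytes was 0.81 over excitatory neurons, and microglia had 0 members lower, a HET median of 0.31 and a share difference of 0.101 points; endothelial cells had under 10 nuclei in a library and gave no value. Without the C1q demand, set aside after the data were seen, microglia had 0 lower, medians of 1.11 (HET over WT) and 3.16 (over excitatory neurons), a share difference of 1.19 points, and turned direction for *Rpl38* (0.70), *Rps21* (0.020) and *Rps29* (0.50). Without the detection filter the microglia median was 1.81. For paralogs, the difference from excitatory neurons was 9.84 points in oligodendrocytes and 15.4 in microglia for *Rpl22l1* under 1% mitochondrial UMIs, and at 1000 to 2000 UMIs 5.01 for *Rps27l* in inhibitory neurons and 0 for *Rpl3l* in oligodendrocytes, microglia and endothelial cells.

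Leaving out each library in turn, counts lower at p under 0.01 ran from 0 to 69 in excitatory neurons, 0 to 71 in inhibitory neurons, 0 to 57 in oligodendrocytes, 1 to 8 in microglia and 0 to 70 in all nuclei, with medians from -1.21 to -0.18, -1.17 to -0.062, -1.60 to -0.57, -0.71 to -0.16 and -1.12 to -0.20, and in endothelial cells from -0.040 to 0.20 with 0 lower. With 1 library left in a genotype, it is assumed to vary like the other. The replicate block gave medians of -0.68, -0.64, -1.05, -0.47, 0.10 and -0.68 in excitatory neurons, inhibitory neurons, oligodendrocytes, microglia, endothelial cells and all nuclei, with 0, 0, 8, 4, 0 and 0 lower at p under 0.01, and 1 and 2 called in oligodendrocytes and microglia. The libraries share only a number: the correlation of same-numbered deviations was -0.0817 to -0.0112. Depth limits microglia and endothelial cells, with 130 to 165 and 53 to 202 nuclei per library.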

Other observations

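A few nuclei held far more ribosomal protein UMIs than any class. Over 10% of UMIs were ribosomal in 9 nuclei of WT replicate 1, 0 of WT replicate 2, 3 of HET replicate 1 and 3 of HET replicate 2, and 7, 3 and 3 of these also had UMIs of MHC class II genes, which antigen-presenting cells use. In HET replicate 1 the 3 nuclei had 5094 to 9287 UMIs each and 23.7% to 35.1% ribosomal UMIs, spread over 81 of the 85 members. All 3 carried microglia markers but no UMI of *C1qa*, *C1qb* or *C1qc*. The nuclei with the same markers and no C1q UMI but under 10% ribosomal UMIs, 5 to 13 per library, held 0.532% to 0.870%, against 0.652% to 1.15% in the microglia class. No cell type was assigned to the ribosome-rich nuclei.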
